A study of Mus musculus with 28 samples.

Results

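The transcripts described here are those of the cytosolic ribosomal proteins, counted in small RNA libraries of mouse sperm. Members were taken by name, although the set as such was chosen with earlier results of these data known. An exon feature belonged to it when its symbol was Rpl or Rps with a number, or was Rplp0, Rplp1, Rplp2 or Rpsa. The Rps6k kinases were left out. The names matched 85 genes in each of the 3 count tables deposited. Among these, GENCODE M21 annotates Rpl32l as a processed pseudogene and Rps4l as a transcribed processed pseudogene. There were 22281 genes with exon counts in the wild-type (WT) table, against 19723 for Nrf2-/- and 19315 for floxed and liver knockout mice. A mean of 5 or more counts per library was reached by 84, 84 and 83 members in that order of tables. Rpl3l missed it in every table, with a mean of 2.5 to 3.0 counts, and Rps27l missed it in the floxed and liver knockout table, with a mean of 4.00 counts. Among all genes, the same minimum was reached by 9593, 9315 and 8823 in that order.

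The 28 libraries form 8 groups. Of the WT libraries, 4 had no alcohol exposure (WT control), 4 came from low-dose, 2 from medium-dose and 2 from high-dose alcohol exposure. The Nrf2-/- groups, from mice lacking the antioxidant transcription factor Nrf2 (gene Nfe2l2), were 4 control libraries without alcohol and 4 libraries with ethanol. The last groups were 4 libraries from mice with a floxed Nrf2 allele (Nrf2 flox) and 4 from mice with the floxed allele and Albumin-Cre (Nrf2 liver KO), in which the albumin promoter drives deletion in hepatocytes and not in sperm. The sources used here do not give the amounts of alcohol, the strain or age of the mice, or whether libraries came from separate animals. The p-values therefore measure only the spread between these libraries, which may be technical.

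The cytosolic ribosome joins a small and a large subunit, and most genes named Rps and Rpl encode the proteins of each. Their mRNAs are short, abundant in every translating cell, and typically begin with a 5′ terminal oligopyrimidine (TOP) tract, through which their translation is controlled together. Mature sperm are largely silent in transcription and in translation on cytosolic ribosomes, whereas the epithelium of the epididymis, the duct in which sperm mature, is secretory and translates actively. Some ribosomal proteins have a second gene used in the male germ line, such as Rpl10l and Rpl39l for the X-linked Rpl10 and Rpl39.

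Libraries of the WT table held 1993933 to 11119711 counts over all feature classes, against 3922109 to 6448390 for Nrf2-/- and 2567463 to 4394714 for floxed and liver knockout mice. Exon features held 168282 to 835420, 216974 to 680082 and 227609 to 448059 of these counts, and the ribosomal protein genes 1289 to 11414, 1228 to 12511 and 1433 to 5508. All levels below are exon counts scaled to 1000000 exon counts in each library (CPM). Nfe2l2 had exon counts in all 12 WT libraries (4 to 47 counts) and in 7 of 8 Nrf2-/- libraries (at most 20 counts). The deleted part of Nfe2l2 is not given in the sources used here, and these counts check no genotype. All 16 sperm and spermatid markers, such as the protamines Prm1 and Prm2, had counts in every table, so the labelled cell type was represented. Of 14 epididymis epithelium markers, 12 had counts in the WT table (Lcn9 and Cst11 had none), 13 in the Nrf2-/- table (Cst11 had none) and 12 in the floxed and liver knockout table (Cst11 and Defb20 had none). WT control 1 stood apart in depth and composition, with 75.8% of its counts on structural RNA.

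The ribosomal protein genes together took 0.379% to 1.90% of the exon counts of a library. The WT controls held a summed 10274, 5901, 7660 and 7357 CPM. The low-dose libraries held 5671, 4045, 6497 and 5013 CPM, the medium-dose libraries 6304 and 3793 CPM, and the high-dose libraries 13663 and 5311 CPM. Within the WT table, high-dose library 1 was thus the highest and medium-dose library 2 the lowest, a range of 3.60-fold, and the high-dose libraries themselves lay on either side of all 4 controls. The Nrf2-/- controls held 18970, 18396, 4541 and 4649 CPM, and the Nrf2-/- ethanol libraries 9276, 9370, 7157 and 8754 CPM. All ethanol libraries lay between the 2 higher and the 2 lower controls. The Nrf2 flox libraries held 8055, 9043, 12293 and 8659 CPM, and the liver KO libraries 6296, 6012, 8026 and 5430 CPM. These last groups did not overlap, although flox library 1 and liver KO library 3 lay close together.

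**Figure D1:**
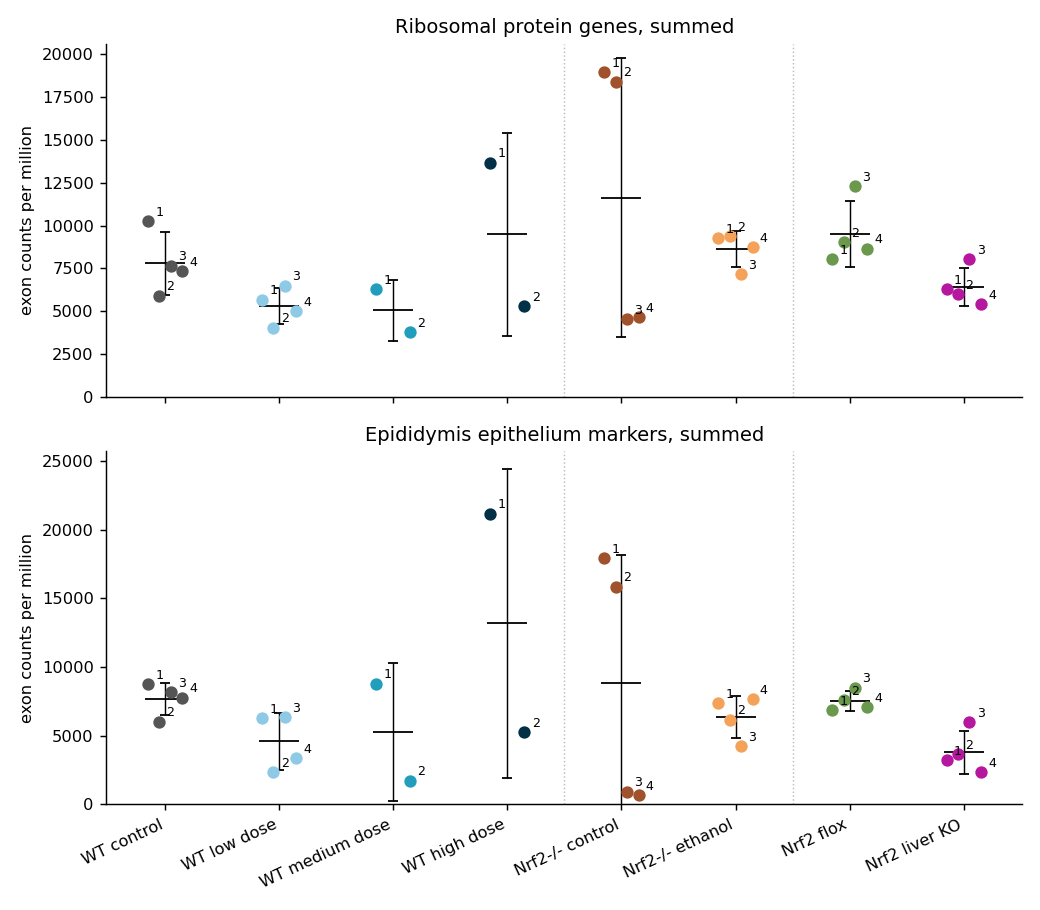
Summed exon CPM of the ribosomal protein genes (top) and of the epididymis epithelium markers (bottom) in each library, by group; numbers are replicate numbers, and the bar and whiskers are the group mean ± SD. Nrf2-/- controls 1 and 2 and WT high-dose library 1 are the highest in both panels, and Nrf2-/- controls 3 and 4 are near the bottom of both.

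The libraries with the highest ribosomal protein sums also had the highest epididymis marker sums, though not every library followed this order. Summed epididymis markers were 17928 and 15844 CPM in Nrf2-/- controls 1 and 2, against 917 and 679 CPM in controls 3 and 4. The sperm and spermatid markers ran the other way, at 1829 and 2264 CPM in controls 1 and 2 and 13069 and 17596 CPM in controls 3 and 4. In the WT table the epididymis sum was highest in high-dose library 1 (21146 CPM) and lowest in medium-dose library 2 (1713 CPM), the same libraries that held the extremes of the ribosomal protein sum. Medium-dose library 1 went the other way, with 8794 CPM of epididymis markers, above all 4 WT controls, and 6304 CPM of ribosomal protein transcripts, below 3 of them. In bulk RNA, fewer cells of a type and less RNA per cell cannot be told apart, and the part of the epididymis markers in the results below was not tested.

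Many of the genes were highest or lowest in the same libraries. WT high-dose library 1 was the highest of the 12 WT libraries for 71 of 84 members, and medium-dose library 2 the lowest for 31. Nrf2-/- controls 1 and 2 were the highest of 8 for 47 and 30 of 84 members, and controls 3 and 4 the lowest for 33 and 40. Nrf2 flox library 3 was the highest of 8 for 45 of 83 members, and liver KO libraries 1, 2 and 4 were the lowest for 24, 22 and 26. The matching shares over all genes were not computed, so these counts do not set the members apart from other genes. Summed translation factors and ribosome biogenesis factors, described below, were also highest in WT high-dose library 1 (5892 and 705 CPM). Both were lowest of the WT libraries in medium-dose library 2 (1463 and 325 CPM). Mitochondrial ribosomal proteins had other extremes. The ratio of large to small subunit transcripts varied less than either sum, from 1.04 in WT medium-dose library 2 to 1.79 in Nrf2-/- control 2, with a median of 1.41 over the 28 libraries.

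**Figure D2:**
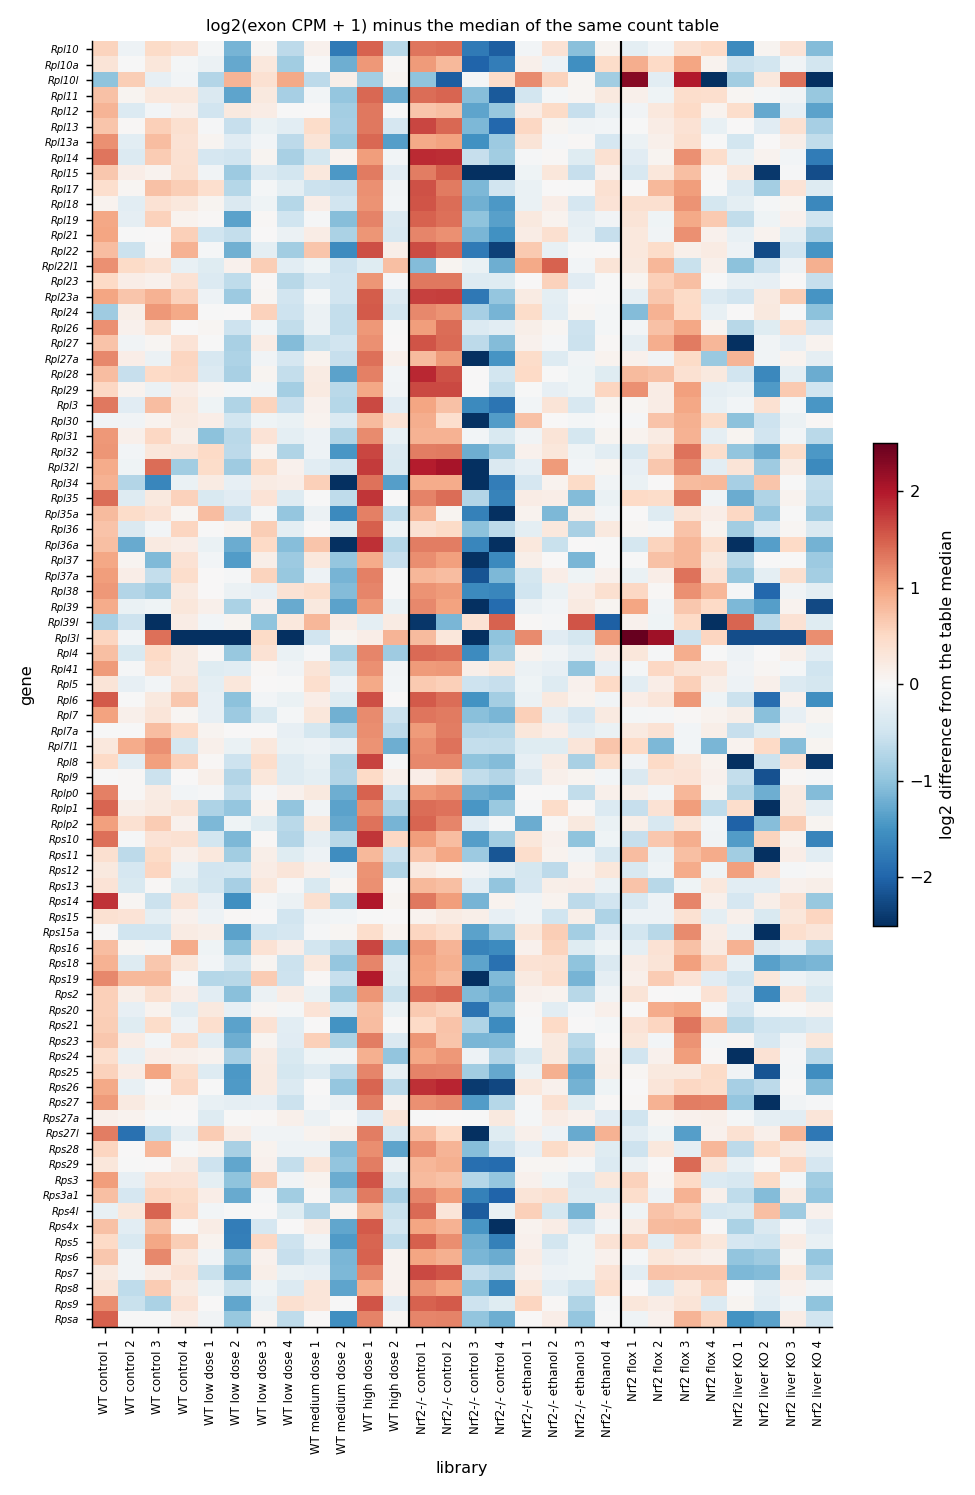
Each row is a ribosomal protein gene and each column a library; colour is log2(exon CPM + 1) minus the gene's median in the same count table, and black lines separate the tables. Columns such as WT high-dose library 1 and Nrf2-/- controls 1 to 4 have nearly one colour throughout, while the rows of Rps27a and Rps15 stay pale and those of Rpl10l and Rpl39l break the pattern.

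Levels of single members spanned more than an order of magnitude, and the highest 10 genes held 29.9%, 26.5% and 30.6% of the members' counts in the WT, Nrf2-/- and floxed and liver knockout tables. Rps27a, which encodes a ribosomal protein of the small subunit fused to ubiquitin, had the highest mean level in the WT table (510 ± 61.6 CPM, SD over 12 libraries) and in the floxed and liver knockout table (520 ± 89.9 CPM, SD over 8 libraries), and was second in the Nrf2-/- table (314 ± 35.5 CPM, SD over 8 libraries). Rpl41, which encodes the smallest protein of the large subunit, was first in the Nrf2-/- table (465 ± 228 CPM) and second in the other tables (262 ± 106 and 389 ± 83.2 CPM). Rps15, a small subunit protein needed for export of the pre-ribosome from the nucleus, had 227 ± 36.6, 210 ± 46.0 and 209 ± 47.6 CPM in the same order of tables. Rpl10, a late-joining large subunit protein, had 188 ± 115, 287 ± 228 and 204 ± 83.7 CPM. Rplp0, Rpl4 and Rpl21 were among the 10 highest in all 3 tables, Rpl5 and Rpl13 in 2 tables each, and Rps2, Rpl9, Rplp1, Rpl3 and Rps14 in 1 table each. The median member stood at 69.6, 108 and 82.3 CPM. Within the ribosomal stalk, the scaffold protein gene Rplp0 averaged 154, 234 and 183 CPM and the acidic protein genes Rplp1 111, 223 and 105 CPM and Rplp2 25.5, 35.5 and 35.9 CPM. Rpsa, the small subunit protein also known as the laminin receptor precursor, averaged 83.2, 138 and 99.6 CPM.

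Length altered this order, since Rpl41 is only 437 bases long in GENCODE M21 and Rpl5 2045 bases. Per kilobase of transcript, Rpl41 had the highest mean level in the Nrf2-/- table (1065 CPM per kilobase) and in the floxed and liver knockout table (889), and Rps27a the highest in the WT table (645 against 599 for Rpl41). Rpl5 was eighth among the members in the WT table by CPM and only rank 49 per kilobase. Counts were spread unevenly over exons in these short-read libraries. In the WT table the first exon held a median of 5.15% of a member's counts against 11.3% of its length, over the 81 members with matched exons, and the last exon held a median of 26.2% of the counts against 28.9% of the length. In Rps27a, which lies on chromosome 11 (GRCm38, 29545846 to 29548109, minus strand), the first of 6 exons held 34% of the length and 0 of 2932 WT counts, while the last held 62.2% of the counts and 23.3% of the length. In Rpl41 (chromosome 10, 128548114 to 128549305, minus strand) the last of 4 exons held 92.9%, 95.6% and 93.6% of the counts in the WT, Nrf2-/- and floxed and liver knockout tables, against 72.3% of the length. In Rps15 (chromosome 10, 80292453 to 80294114, plus strand) the third of 4 exons held 61.5%, 65.3% and 72.8% of the counts. In Rpl41 and Rps15 the exon with the largest share was thus the same in the 3 tables. The median first-exon share over the members was 3.58% in the Nrf2-/- table and 7.30% in the floxed and liver knockout table. The median last-exon share was 25.9% and 21.2% in the same order. Whole profiles were not compared over the members.

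**Figure D3:**
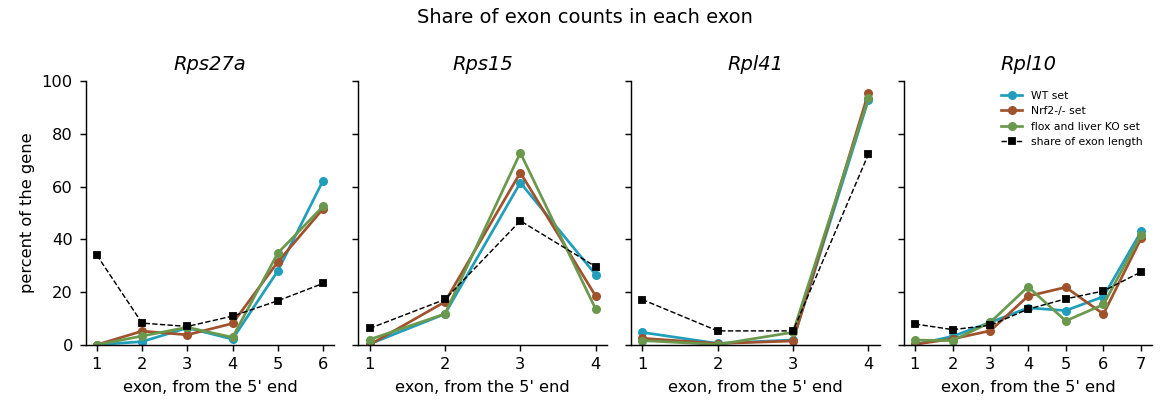
Percent of a gene's exon counts that fell in each exon, numbered from the 5′ end, for Rps27a, Rps15, Rpl41 and Rpl10 in the 3 count tables (coloured points), beside the exon's share of the transcript length (black squares). The 3 tables give profiles of like shape, with few counts in the first exon of each gene and the largest share in the last exon of Rps27a, Rpl41 and Rpl10.

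Ribosomal protein genes have many processed copies elsewhere in the genome, and how reads with several positions were counted is not given in the sources used here. The levels of single members are therefore uncertain to that extent. No exon feature that named several genes named a member. Rps27a overlaps Clhc1 on the opposite strand in GENCODE M21, and Rpl22l1 overlaps the antisense gene Gm33051. Whether counting used the strand is not stated, so reads of these partners cannot be told apart.

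The members that varied least were looked up after the values were seen, among genes with a mean of at least 50 counts. Rps27a had the smallest ratio of highest to lowest library in all 3 tables (1.55 in the WT, 1.46 in the Nrf2-/- and 1.75 in the floxed and liver knockout table), followed by Rps15 (1.82, 1.95 and 1.88). The median ratio was 4.6 over 20 such genes in the WT table, 6.61 over 40 in the Nrf2-/- table and 3.47 over 14 in the floxed and liver knockout table. At the other end stood Rpl10 in the WT table (9.68), Rps4x in the Nrf2-/- table (23.3) and Rpl8 in the floxed and liver knockout table (9.29). The ratios of Rps4x and Rpl8 rest on few counts in the lowest library. Rps4x was at 9.64 CPM in Nrf2-/- control 4, where 3 counts would be 7.23 CPM. Rpl8 was at 26.4 CPM in liver KO library 1, where 3 counts would be 13.2 CPM. Across the Nrf2-/- controls, where the summed level ranged 4.18-fold, Rps27a was at 304, 310, 303 and 366 CPM. Rps15 was at 236, 256, 248 and 193 CPM in the same libraries, and Rps4x at 225, 207, 40.7 and 9.64 CPM. The former genes were at like levels in all 4 controls, while Rps4x, an X-linked small subunit gene, separated controls 1 and 2 from controls 3 and 4.

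In the pairs of Rpl10 and Rpl39 with their germ line paralogues, the members ran in opposite directions across the same controls. Rpl10 was at 620, 631, 70.3 and 57.8 CPM in Nrf2-/- controls 1 to 4, and its intronless autosomal paralogue Rpl10l, which stands in for the X-linked gene in male meiosis, at 7.19, 2.94, 14.8 and 21.7 CPM. Rpl39, which lines the exit tunnel of the large subunit, was at 113, 98.5, 7.40 and 12.0 CPM, and its male germ cell paralogue Rpl39l at 1.80, 5.88, 18.5 and 41.0 CPM. In both pairs the X-linked gene was higher in controls 1 and 2, and the paralogue was higher in controls 3 and 4. Among the controls, the latter libraries had the higher sperm and spermatid marker sums. Ethanol libraries 1 to 4 held 36.4, 23.04, 16.1 and 8.02 CPM of Rpl10l and 14.6, 13.8, 44.3 and 2.67 CPM of Rpl39l. Rpl10l in ethanol libraries 1 and 2 and Rpl39l in library 3 thus lay above controls 3 and 4. Yet the ethanol sperm and spermatid marker sums were 4507 to 6581 CPM, below those of controls 3 and 4. These paralogue levels rest on few counts: in the Nrf2-/- table Rpl10l had a mean of 5.12 and Rpl39l of 5.75 counts per library. In the WT table Rpl39l ran from 0 CPM in control 3, where 3 counts would be 17.8 CPM, to 41.8 CPM in medium-dose library 1. In the floxed and liver knockout table it ran from 0 CPM in flox library 4, where 3 counts would be 8.61 CPM, to 65.9 CPM in liver KO library 1. The other second genes were low as well, with means in the WT table of 22.2 CPM for Rpl7l1, 26.6 CPM for Rpl22l1, 17.3 CPM for Rps4l, 11.7 CPM for Rps27l and 6.03 CPM for the muscle paralogue Rpl3l. Their partners Rpl3, Rpl7, Rpl22, Rps4x and Rps27 stood at 95.5, 69.1, 64.2, 65.8 and 34.6 CPM in WT control 4, as an example of 1 library. Among the 4 WT controls that library had the highest Rpl22 and the lowest Rpl22l1 (19.8 CPM). The order of this pair changed between libraries: Rpl22 was above Rpl22l1 in WT control 1 (60.0 and 50.5 CPM) and below it in control 2 (23.8 and 31.7 CPM).

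How far such copies can be separated by short reads depends on their sequence, so the coding sequences of the closest pair are shown, from the GENCODE M21 transcripts, 5′ to 3′, with the 23 differing bases of 156 in capitals.
Rpl39: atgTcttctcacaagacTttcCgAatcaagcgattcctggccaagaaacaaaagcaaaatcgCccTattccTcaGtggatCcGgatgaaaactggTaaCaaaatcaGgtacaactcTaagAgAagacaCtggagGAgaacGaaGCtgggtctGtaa
Rpl39l: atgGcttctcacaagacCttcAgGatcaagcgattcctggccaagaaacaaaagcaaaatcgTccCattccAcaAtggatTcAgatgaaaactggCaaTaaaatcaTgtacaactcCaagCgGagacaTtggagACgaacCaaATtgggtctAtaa
Rpl39 lies at chrX:37082520-37085402 on the minus strand and Rpl39l at chr16:10170226-10174911 on the plus strand of GRCm38. The longest identical run is 38 bases, and 13.9% of the 137 windows of 20 bases in Rpl39l are found in Rpl39. For Rpl10l the corresponding share was 1.28% of 626 windows, for Rpl22l1 2.0% of 350 and for Rpl3l 0.249% of 1205, and no window of Rpl7l1 or Rps27l was found in its partner. The longest shared run was 26 bases for Rpl22l1 and Rpl22, 23 for Rpl10l and Rpl10 and 22 for Rpl3l and Rpl3. Rps4l, a transcribed processed pseudogene in this annotation, has no coding sequence there and was not compared.

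**Figure D4:**
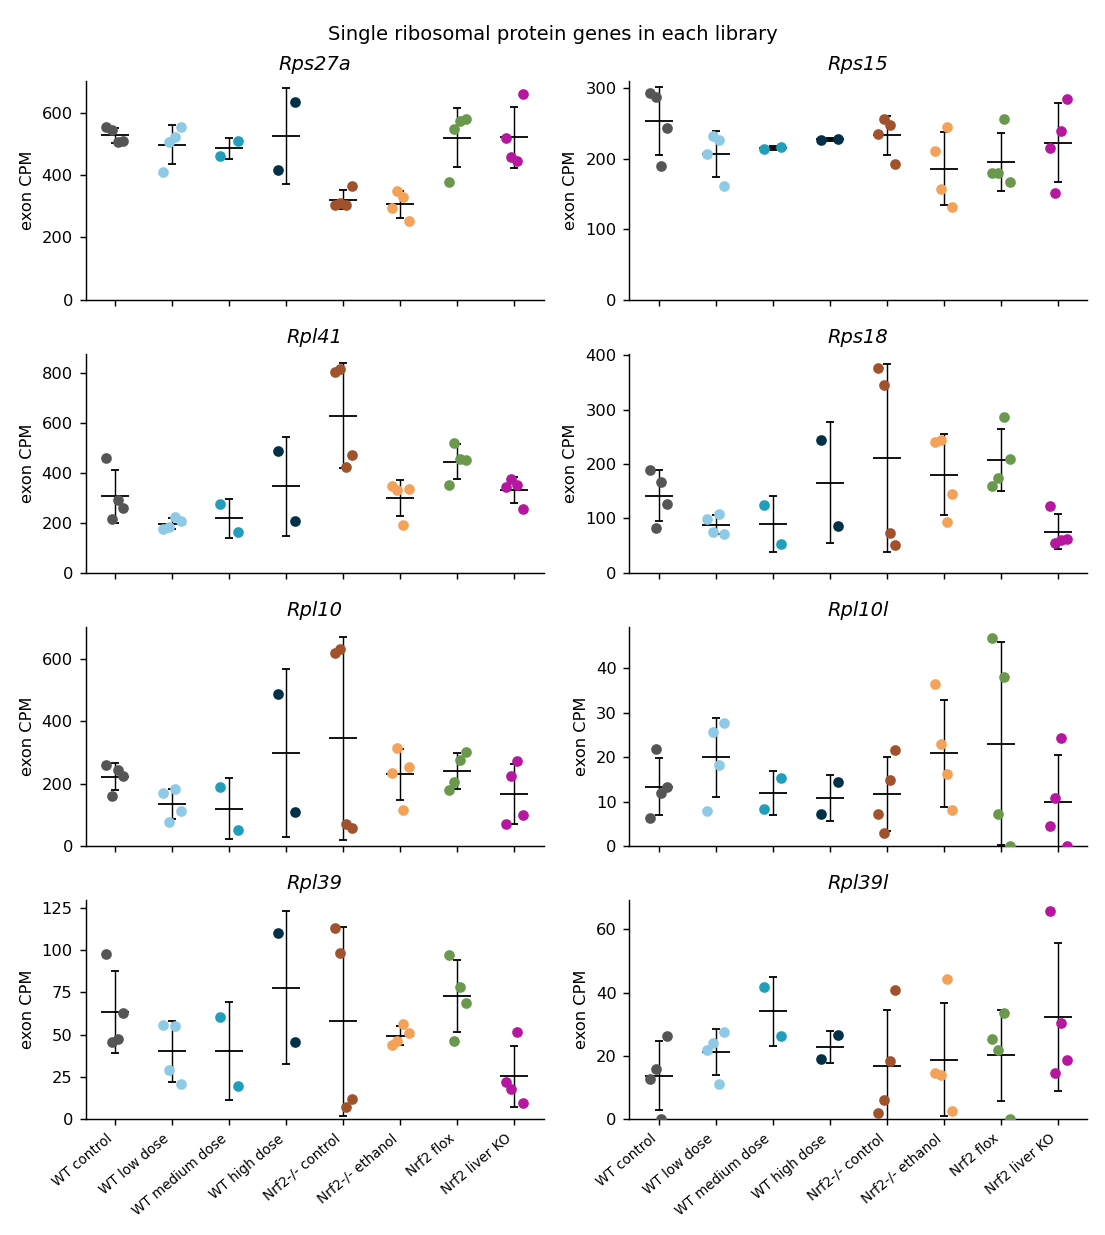
Exon CPM of 8 ribosomal protein genes in each library (points) with the group mean ± SD (bar and whiskers, clipped at 0), each panel with its own axis from 0. Rps27a and Rps15 vary less than 2-fold inside each table, Rpl10 and Rpl39 split the Nrf2-/- controls into a high and a low pair, Rpl10l and Rpl39l stay below 70 CPM, and Rps18 is lower in all 4 liver KO libraries than in any flox library.

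Low-dose alcohol was compared with control in WT sperm. Of 84 members, 77 had a lower and 7 a higher fitted level at low dose, with a median log2 change of -0.54 against -0.01 over all 9593 genes tested, and 50.8% of all genes were lower. Summed over the members, low-dose libraries averaged 5306 ± 1037 CPM and controls 7798 ± 1821 CPM (SD, n = 4 each), a ratio of 0.681. By edgeR's quasi-likelihood test with Benjamini-Hochberg adjustment over all genes no member passed 0.05 (0 of 84, against 0.0313% of all genes), and DESeq2 also called 0. At an unadjusted p under 0.05 there were 16 members, all lower, against 4.26% of all genes in either direction and 2.7% lower. The count of lower members was 73 to 80 under the other scalings, which put the median over all genes between -0.14 and 0.04.

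The lowest p belonged to Rpl23a, a large subunit protein at the mouth of the exit tunnel. It was at 117, 95.1, 107 and 87.2 CPM in the controls and at 53.7, 30.5, 60.4 and 41.5 CPM at low dose. Every control lay above every low-dose library, and the log2 change was -1.04 ± 0.32 (SE, edgeR's adjusted p 0.824). Rplp1, an acidic protein of the stalk, was at 281, 113, 119 and 128 CPM in the controls and at 59.6, 51.5, 108 and 50.8 CPM at low dose. The groups did not overlap, but control 1 and low-dose library 3 stood far from the rest of their groups, and the log2 change of -1.16 ± 0.37 became -0.78 without control 1. Rps10 and Rpl6 were also among the lowest p, with log2 changes of -1.05 ± 0.35 and -1.0 ± 0.35. In all, 11 members had every low-dose library below every control, against 2.23% of all genes, among them Rpl23a, Rplp1 and Rpl6. Epididymis marker sums were 6021 to 8742 CPM in the controls and 2336 to 6329 CPM at low dose. Of the 8 that could be tested, 6 were lower and 2 higher (median log2 change -0.54, 0 called by edgeR). The lowest p belonged to Cd52 (-1.16), Clu (-1.18) and Gpx5 (1.83). Red blood cell markers, all 7 of which had counts in the table, summed to 47.5 to 168 CPM in the controls and 482 to 954 CPM at low dose, and the 3 genes called in the whole table are among them. Leukocyte markers, all 11 with counts, summed to 148 to 250 CPM in the controls and 161 to 429 CPM at low dose, and the 5 that could be tested were all higher (median log2 change 1.47, 0 called by edgeR). Of the 16 sperm and spermatid markers 15 were higher (median 0.24, 0 called). The part of these markers in the result was not tested. Without WT control 1, 69 members were lower and the ratio of sums was 0.761.

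Medium- and high-dose alcohol gave opposite directions for the members, with 2 libraries in each group, and the direction at high dose rested on high-dose library 1. At medium dose 75 of 84 members were lower and 9 higher, with a median log2 change of -0.59 against -0.02 over all genes, of which 51.5% were lower, and the ratio of sums was 0.647. Other scalings gave 75 to 80 lower members, with the median over all genes as low as -0.20. By edgeR 0 members passed the adjusted threshold (0% of all genes did), DESeq2 also called 0, and 9 members had an unadjusted p under 0.05, of which 8 were lower, against 4.97% of all genes in either direction and 3.21% lower. In 21 members both medium-dose libraries lay below all 4 controls, against 9.62% of all genes, and in 0 members both lay above, against 3.99%. Rps6, a small subunit protein and target of the S6 kinases, was among the lowest p, at 148, 87.2, 213.9 and 112 CPM in the controls and 73.1 and 41.7 CPM at medium dose. Its groups did not overlap, and the log2 change was -1.07 ± 0.42 (edgeR's adjusted p 0.924). Rplp1 (-1.09 ± 0.48) and Rpl17 (-0.85 ± 0.38) followed. Medium-dose library 2 held 1713 CPM of epididymis markers against 8794 CPM in library 1, and without it 65 members were lower.

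At high dose 73 of 84 members were higher and 11 lower, with a median log2 change of 0.27 against 0.01 over all genes, of which 48.8% were lower. With the total of all classes as the scale, 1 member was lower and the median over all genes moved to 0.44. This direction belonged to 1 library: without high-dose library 1, 71 members were lower and the ratio of sums went from 1.22 to 0.681, and without library 2, 4 members were lower and the ratio was 1.75. By edgeR 0 members passed the adjusted threshold (0% of all genes), 0 had an unadjusted p under 0.05 (2.57% of all genes, 1.34% lower), and DESeq2 called 0. Rps13 had the lowest p, at 60.0, 35.7, 47.5 and 37.9 CPM in the controls and 104 and 48.1 CPM at high dose. High-dose library 2 lay inside the range of the controls, and the log2 change was 0.72 ± 0.37 (edgeR's adjusted p 0.999). Rps10, Rps7, Rpl36a and Rpl36 followed with log2 changes of 0.61 ± 0.38, 0.53 ± 0.36, 0.96 ± 0.67 and 0.55 ± 0.39. In Rpl30 and Rpl9 alone both high-dose libraries were above all controls, against 4.08% of all genes, and in 0 members both were below, against 3.18%.

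With medium and high dose pooled, 59 members were lower and 25 higher (median log2 change -0.18 against -0.03 over all genes, of which 53.1% were lower). By edgeR 0 members were called (0% of all genes), DESeq2 called 0, 1 member had an unadjusted p under 0.05 against 2.41% of all genes in either direction and 1.37% lower, and no member had groups without overlap (0.761% of all genes lower and 0.657% higher). Without high-dose library 1, 75 members were lower, without high-dose library 2 only 26 and without WT control 1 only 38, and scaled to the total of all classes 25 were lower, so no direction held. Rplp1 (-0.66 ± 0.37), Rpl39l (0.77 ± 0.48), Rpl23a (-0.44 ± 0.31) and Rpl17 (-0.37 ± 0.29) were among the lowest p. The WT comparisons share their 4 controls.

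**Figure D5:**
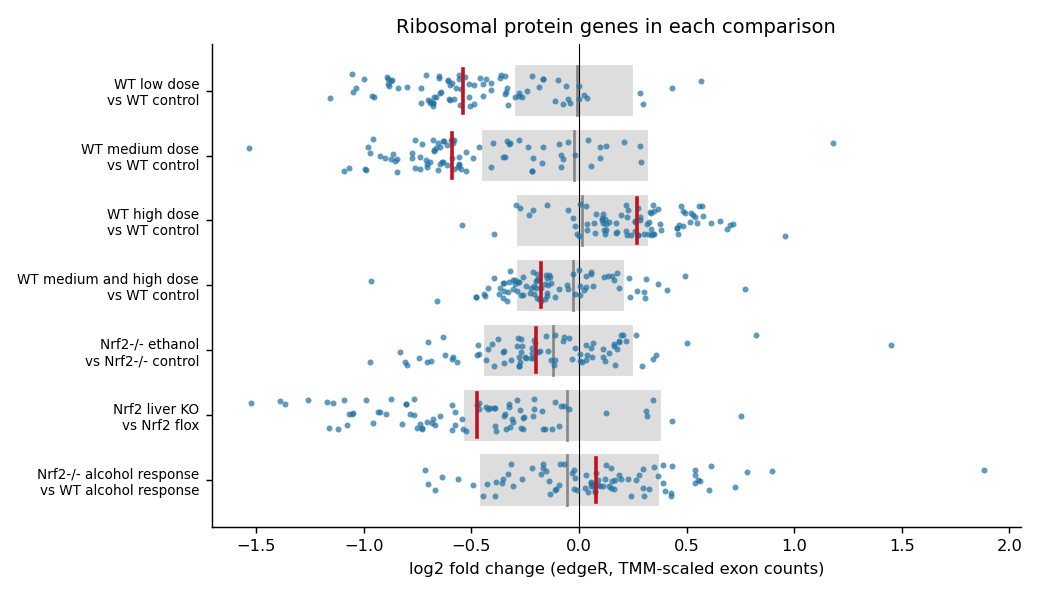
log2 fold change of each ribosomal protein gene (blue points) with their median (red line) in each comparison, beside the middle 50% of all genes tested (grey box) and their median (grey line). Most members lie below 0 at low dose, at medium dose and in the liver KO; the points at high dose lie mostly above 0, but 71 of 84 lie below 0 without high-dose library 1, and the Nrf2-/- comparisons change with the controls used and with the scaling.

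Ethanol was compared with control in Nrf2-/- sperm, where the controls themselves fell into a high and a low pair. With all 8 libraries, 55 of 84 members were lower and 29 higher, with a median log2 change of -0.20 against -0.12 over all genes, of which 59.1% were lower. Ethanol libraries averaged 8639 ± 1025 CPM and controls 11639 ± 8137 CPM (SD, n = 4 each), a ratio of 0.742. By edgeR 0 members were called (0% of all genes), DESeq2 called 0, and 2 had an unadjusted p under 0.05 against 3.41% of all genes, 1 of them lower against 0.945%. Since every ethanol library lay between the pairs of controls, the direction depended on the pair: the ratio of sums was 1.88 against controls 3 and 4 alone and 0.462 against controls 1 and 2 alone. The pairs are told apart by the summed level itself, so these ratios are a description and support no direction. Epididymis markers summed to 4227 to 7672 CPM with ethanol, between the 679 and 917 CPM of controls 4 and 3 and the 15844 and 17928 CPM of controls 2 and 1, and their part was not tested. Leukocyte markers (all 11 with counts) summed to 53 to 226 CPM in the controls and 300 to 380 CPM with ethanol, and smooth muscle and fibroblast markers (all 10 with counts) to 488 to 776 and 1016 to 1885 CPM, without overlap, and their part was not tested either. The count of lower members also moved with the scaling, to 74 with exon totals, 81 with all features other than miRNA fitted together and 82 when scaled to the total of all classes, where the median over all genes was -0.21, -0.45 and -0.85.

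Rpl41 was the member whose groups did not overlap, 1 of 84 against 1.31% of all genes lower, and 0 were higher without overlap against 1.72%. It was at 805, 818, 425 and 470 CPM in the Nrf2-/- controls and at 346, 332, 193 and 334 CPM with ethanol. All 4 ethanol libraries lay below the lowest control, with the log2 change at -0.97 ± 0.42 (SE, edgeR's adjusted p 0.9999), and it ran from -1.08 to -0.87 when each library was left out in turn. Rpl22l1 had the lowest p, at 5.39, 13.2, 11.1 and 4.82 CPM in the controls and 25.5, 36.9, 12.1 and 16 CPM with ethanol. Ethanol library 3 lay below control 2, and the log2 change was 1.45 ± 0.57 at a mean of 5.12 counts per library. Its partner Rpl22 was at 165, 149, 14.8 and 9.64 CPM in the controls and 83.7, 46.1, 52.3 and 53.5 CPM with ethanol. Rpl28, Rplp2 and Rpl29 followed with log2 changes of -0.81 ± 0.45, -0.83 ± 0.46 and -0.71 ± 0.43.

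The difference between the ethanol response in Nrf2-/- and the mean response over the 3 doses in WT was tested as an interaction over 20 libraries. By edgeR 0 of 84 members passed (0% of all genes), DESeq2 called 0, and 1 had an unadjusted p under 0.05 against 2.83% of all genes. This member was Rpl22l1, with a log2 difference of 1.88 ± 0.65 (edgeR's adjusted p 0.9996). The median over the members was 0.08 against -0.05 over all genes, with 33 members lower and 51 higher, against 53.7% of all genes lower. The count became 54 lower with exon totals, 75 with all features other than miRNA and 82 when scaled to the total of all classes, and the median over all genes then was -0.11, -0.37 and -0.92. It was 16 without WT high-dose library 1, 19 without Nrf2-/- control 2, 52 without control 3, 51 without control 4 and 19 with a replicate block, so no direction held. Rpl41 (-0.70 ± 0.43), Rpl29 (-0.63 ± 0.49) and Rps9 (-0.71 ± 0.61) were also among the lowest p.

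Sperm of liver KO mice was compared with that of floxed mice. Of 83 members 77 were lower and 6 higher in the liver KO, with a median log2 change of -0.47 against -0.06 over all 8823 genes, of which 53.6% were lower. Liver KO libraries averaged 6441 ± 1117 CPM and flox libraries 9513 ± 1898 CPM (SD, n = 4 each), a ratio of 0.677. No member passed by edgeR (0 of 83, against 0.0113% of all genes), while 23 had an unadjusted p under 0.05, all lower, against 10.7% of all genes in either direction and 6.06% lower. DESeq2 called 1 member, Rps18, while it called 6.48% of the 1126 genes to which it gave an adjusted p. The count of lower members was 77 to 82 under the other scalings, which put the median over all genes as low as -0.49, and 70 to 75 with each library left out in turn.

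Rps18, a small subunit protein at the head that contacts the large subunit, was at 159, 175, 286 and 210 CPM in the flox libraries and at 123, 54.1, 60.6 and 62.7 CPM in the liver KO libraries. Every liver KO library lay below every flox library, and liver KO library 1 stood nearest to them. The log2 change was -1.36 ± 0.33 (SE), with an adjusted p of 0.208 by edgeR, 0.0139 by DESeq2 and 0.0351 by edgeR with no filter on counts, a fit that called 0.104% of all 19315 genes. Rps21 was at 90.1, 104, 181 and 121 CPM in the flox libraries and 43.9, 50.5, 51.5 and 56.4 CPM in the liver KO. The groups did not overlap, and the log2 change was -1.17 ± 0.35 (edgeR's adjusted p 0.257). Rpl28 was at 119, 114, 89.3 and 80.4 CPM in the flox libraries and 48.3, 21.6, 57.5 and 28.2 CPM in the liver KO. Again no libraries overlapped, and the log2 change was -1.26 ± 0.39 (edgeR's adjusted p 0.260). Rpl39 (-1.39 ± 0.48) and Rpl35 (-1.07 ± 0.37) had the next lowest p, and each had overlapping groups. In 10 members every liver KO library lay below every flox library, against 4.68% of all genes, including Rps18, Rps21, Rpl28, Rps27 and Rps26, and in 0 members every one lay above, against 2.19%. Rps27a was at 379 to 580 CPM in the flox libraries and 445 to 661 CPM in the liver KO, and Rps15 at 166 to 257 and 151 to 285 CPM, so both overlapped widely.

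Marker sums separated the floxed and liver KO libraries too. Epididymis markers summed to 6847 to 8490 CPM in the flox and 2334 to 5983 CPM in the liver KO libraries, and sperm and spermatid markers to 6499 to 8624 CPM and 8644 to 11581 CPM. Neither range overlapped, and the part of these cells in the lower ribosomal protein level was not tested. Hepatocyte markers, all 6 of which had counts, summed to 204 to 873 CPM and 83.5 to 877 CPM and overlapped.

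Other genes of the translation machinery were followed with lists kept apart from the members. Translation factors and further mRNAs known to carry a TOP tract, such as the elongation factors Eef1a1 and Eef2 and the ribosome-bound scaffold Rack1, formed a list of 21 genes. Of these, 16 were lower at low dose (median log2 change -0.34), 18 at medium dose (-0.62), 8 at high dose (0.11), 18 with both these doses pooled (-0.31), 18 with ethanol in Nrf2-/- (-0.22) and 18 in the liver KO (-0.39), and 0 were called by edgeR in any of these comparisons. The high-dose libraries differed, with summed levels of 5892 CPM in library 1 and 2084 CPM in library 2, against 2370 to 3930 CPM in the controls. No test compared this list with the members. The lowest p in the liver KO was that of Eef1a1 (log2 change -0.93, unadjusted p 0.00214 by edgeR), followed by Eif4b (-0.92). At low dose Rack1 (-1.03) and the TOP transcript Tpt1 (-0.91) had the lowest p.

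The mitochondrial ribosomal proteins, which build the separate ribosome of mitochondria, varied less in their summed level, which ran from 1968 to 2542 CPM in the WT table and from 1652 to 2147 CPM in the floxed and liver knockout table. Of 38 tested genes 18 were lower at low dose (median log2 change 0.02) and 17 at medium dose (0.05), of 53 tested 35 were lower with ethanol in Nrf2-/- (-0.19), and of 37 tested 25 were lower in the liver KO (-0.24). The Nrf2-/- controls, whose cytosolic sums differed 4.18-fold, held mitochondrial sums between 2067 and 2438 CPM. Ribosome biogenesis factors, such as nucleolin (Ncl) and fibrillarin (Fbl), had 10 of 16 lower at low dose (median -0.13) and 10 of 15 in the liver KO (-0.12), and 0 of either list were called by edgeR in these comparisons.

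Because the members are known for their TOP tract, the start sites were read from RefSeq (GRCm38.p6), which held 76 promoters of 64 of the 85 genes. A tract was defined as a C followed by at least 5 bases that are each C or T, starting between 5 bases before and 10 bases after the annotated start, on the sense strand only. It was found in 27 of 76 promoters (35.5%), against 12.9% of all 32851 promoters in the table. The windows of 20 bases on either side of the start are shown, with the tract in capitals, for members with low p in the liver KO (Rps18, Rpl28), the Rpl39 pair, the gene of widest range among those with a mean of at least 50 counts in the WT table (Rpl10) and the gene with the lowest p in the Nrf2-/- comparison (Rpl22l1).
Rps18: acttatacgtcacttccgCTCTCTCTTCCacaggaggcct
Rpl28: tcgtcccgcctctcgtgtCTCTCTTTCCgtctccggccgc
Rpl39: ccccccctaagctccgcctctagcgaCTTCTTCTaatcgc
Rpl39l: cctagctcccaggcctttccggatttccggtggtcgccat
Rpl10: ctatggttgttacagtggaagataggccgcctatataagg
Rpl22l1: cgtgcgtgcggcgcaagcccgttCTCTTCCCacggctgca
In this order they lie at chr17:33955646-33955685 (minus strand), chr7:4792945-4792984 (plus), chrX:37085203-37085242 (minus), chr16:10170208-10170247 (plus), chrX:74270796-74270835 (plus) and chr3:28805488-28805527 (plus). Rps18, Rpl28, Rpl39 and Rpl22l1 carry the tract in this window, and Rpl39l and Rpl10 have no match that starts within the stated limits. The annotated starts of Rpl10l, Rps15, Rpl22 and Rpl41, not shown, had no match within those limits either. Whether the tract goes with the changes described above was not tested. A missing match says only that these letters are not at the annotated start.

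Introns of the members were counted as a separate feature class and gave another picture than the exons. Between 25 and 27 members could be tested in a table, and 0 were called by edgeR in any of the 6 comparisons within a table, against 0.225% of all intron genes higher and 0.0624% lower at low dose and 0.051% lower in the liver KO. DESeq2 was not run on introns, and 3, 1, 0, 0, 1 and 2 members had an unadjusted p under 0.05 at low, medium, high, and medium and high dose, with ethanol in Nrf2-/- and in the liver KO, against 10.6%, 3.83%, 4.4%, 4.25%, 3.16% and 6.32% of all intron genes. In the Nrf2-/- ethanol comparison 21 of 26 were higher (median log2 change 0.38 against 0.02 over all intron genes), in the liver KO 16 of 25 were lower (-0.25 against -0.02) and at low dose 14 of 27 were lower (-0.10 against -0.01). Scaled to exon counts, the summed introns of the members stood at 68863 to 81059 CPM in the Nrf2-/- ethanol libraries and 30170 to 51378 CPM in the controls, without overlap. Scaled to the counts of all classes, they stood at 3622 to 5811 and 2140 to 4130 CPM, which overlap. Introns of many ribosomal protein genes host small nucleolar RNAs, and whether the intron counts hold them was not tested.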

How the data were processed

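Mouse sperm small RNA was analysed in 28 libraries, made with a Qiaseq kit after Trizol extraction per the labels. The deposited values are raw read counts per annotated feature in 3 tables, whole numbers with different totals per library. The aligner, counting tool, genome build, strand and treatment of reads with several positions are not given in the sources used here. Groups follow the labels; for WT medium dose 1 the column is named like the high-dose columns, and its label was followed.

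Exon counts were summed per gene symbol. Levels (CPM) are exon counts scaled to 1000000 per library, without further scaling. Fold changes are from edgeR 4.0.16 (R 4.3.3), quasi-likelihood F test, two-sided, with TMM scaling on exon counts, genes with a mean of 5 or more counts, and Benjamini-Hochberg adjustment over all genes at 0.05. The 12 WT libraries were fitted together, the other tables with 8 libraries each, and the interaction with 20. The procedure was tested on simulated data with the same spread for every gene and no shift shared by a whole library. That simulation does not cover the differences between libraries seen here. Library totals give the depth. The floor of 3 counts given beside zeros reflects counting error alone. Exon order, lengths and coding sequences are from GENCODE M21 (GRCm38) and promoters from RefSeq GRCm38.p6. Summaries and plots used Python 3.11.15, numpy 2.4.6, pandas 2.3.3 and matplotlib 3.10.9.

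Alternatives were DESeq2 1.42.0, library sizes from exon totals or from all classes, all features other than miRNA fitted together, filterByExpr, no filter, a fit of the compared groups alone, a replicate block, a threshold of 0.1 and each library left out. The omission of 2 Nrf2-/- controls at once, the counts of lower members and the intron fits were chosen after seeing the data. The members, marker lists and other lists were chosen with earlier results of these data known.

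Genes were named by rule: the 10 members highest in mean CPM per table, the 7 paralogue pairs, Rplp0, Rplp1, Rplp2 and Rpsa, per comparison the members past the threshold or, where none passed, the 5 with the lowest p, up to 5 members without overlap between groups, and up to 3 of lowest p per other list. Single-gene results of 2 members that the rule picks are not reported here. The labels do not say that replicate numbers pair libraries, and they were not treated as pairs, since no 2 groups had 3 or more pairs all above 0.1: correlations of their deviations ran from -0.34 to 0.32 in the Nrf2-/- table, -0.03 to 0.10 between flox and liver KO, and -0.05 to 0.26 between WT control and low dose. WT groups with 2 shared numbers could not meet this rule, whatever their values. Between them the correlations ran from 0.24 to 0.48 (low and high dose), 0.22 to 0.38 (low and medium), -0.05 to 0.37 (control and high) and -0.05 to 0.25 (control and medium). For high and medium dose both pairs gave 0.46, the same value by construction, since the deviations of 2 libraries from their mean mirror each other.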

Additional observations from a re-analysis of the deposited data

Results flagged for a closer look

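Within groups of 4 libraries, the highest or lowest library was compared with its nearest neighbour, for 17 quantities (14 genes, the summed level, the ratio of subunits and the intron level). Of 102 sets 9 held a library whose gap was large for the range of its group. The cutoff flags about 1 in 20 sets of independent, normally distributed values. Many genes here shared their extreme libraries and some were named for results in these data, so the number flagged is no test of an excess. The ratio of large to small subunit transcripts was 1.31 in Nrf2 flox 4, against 1.5 to 1.52 in the other flox libraries. Rps27a was at 366 CPM in Nrf2-/- control 4, above 303 to 310 CPM in the other controls, and at 379 CPM in Nrf2 flox 1, below 548 to 580 CPM in the other flox libraries. Rps15 was at 257 CPM in Nrf2 flox 3, above 166 to 180 CPM in the others. Rpl41 was at 193 CPM in Nrf2-/- ethanol 3, below 332 to 346 CPM, and Rps21 at 124 CPM in Nrf2-/- ethanol 2, above 85.5 to 88.6 CPM. Rps18 was at 123 CPM in Nrf2 liver KO 1, above 54.1 to 62.7 CPM in the other liver KO libraries. Rplp1 was at 281 CPM in WT control 1, above 113 to 128 CPM, and at 108 CPM in WT low dose 3, above 50.8 to 59.6 CPM.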

How the results depend on the processing

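By edgeR 0 members were called in every comparison when any 1 library was left out (range 0 to 0). In the liver KO comparison 1 member was called by DESeq2 and 1 with no filter, Rps18 in each case. With each library left out in turn, lower members numbered 69 to 79 at low dose, 65 to 76 at medium dose, 4 to 71 at high dose, 26 to 75 for medium and high dose together, 36 to 76 with ethanol in Nrf2-/-, 70 to 75 in the liver KO and 16 to 52 for the interaction. The ratios of sums ran from 0.629 to 0.761, 0.486 to 0.808, 0.681 to 1.75, 0.659 to 1.08, 0.617 to 0.939 and 0.622 to 0.750 for the first 6 of these. At high dose 5 members were lower with all features other than miRNA, 1 with the total of all classes, 7 with no filter and 20 with the replicate block, and for medium and high dose together 25 with the total of all classes. For the interaction the numbers were 54 with exon totals, 75 with all features other than miRNA, 82 with the total of all classes, 59 with no filter and 19 with the replicate block. The replicate block changed no other count of members by over 1.5 times. Without Nrf2-/- controls 1 and 2, 33 of 81 members were called, all higher, against 31.6% of all genes called (15.5% higher). In that fit 11 members were lower and the ratio of sums was 1.88. Without controls 3 and 4, 37 of 82 members were called, all lower, against 26.1% of all genes called (9.95% lower). These controls stand apart by the summed level itself, which fixes the direction, so these calls support none. Single genes turned direction 3 times: Rpl36a (-0.69) and Rpl36 (-0.27) without WT high dose 1 (1.65 and 1.07 without WT high dose 2, the other end of their range), and Rpl29 without Nrf2-/- controls 1 and 2 (0.14). The cause was not tested. Rpl22l1 fell under the filter in 3 of 8 such fits of the Nrf2-/- table. Only 20, 40 and 14 members averaged at least 50 counts in the 3 tables, and the part of depth and of the spread between libraries in the lack of calls was not tested.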
